A study of Mus musculus with 6 samples.

Results

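The genes described here are the 8 that encode the KEAP1-NRF2 switch and its DNA-binding partners: the transcription factor NRF2 (Nfe2l2) and its relative NRF1 (Nfe2l1), the sensor KEAP1 (Keap1) and its cullin CUL3 (Cul3), the repressor BACH1 (Bach1), and the small MAF proteins MAFG, MAFK and MAFF (Mafg, Mafk, Maff). They were chosen by symbol, and all 8 were found among the 24054 genes of the deposited tables and passed the filter on low counts that left 11400 genes for testing. The cells were bone marrow-derived macrophages, grown for 7 days from marrow of C57BL/6 mice of genotype WT in medium conditioned by L929 cells, and their poly(A) RNA was sequenced in bulk. The 3 oxLDL samples then received 50 µg/ml of oxidised low-density lipoprotein, the oxidised form of the main cholesterol carrier of blood, for 24 hours, and the 3 untreated samples were kept without it. Each group held the numbers 1, 2 and 3. The labels do not say what a number marks, whether the samples were separate cultures or animals, or what the word mix in every title means.

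In resting cells KEAP1 binds NRF2 and presents it to a CUL3 ubiquitin ligase, so that NRF2 is made and destroyed continuously. Oxidants and electrophiles modify cysteines of KEAP1, NRF2 then accumulates, pairs with a small MAF protein and binds antioxidant response elements (AREs) near genes of glutathione synthesis, detoxification and haem breakdown. BACH1 pairs with the same small MAF proteins, represses many of the same genes and leaves DNA when it binds haem. Much of this control acts on protein stability and location, which RNA sequencing does not measure.

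Totals ran from 13546572 to 15559310 expected counts per library. Both libraries numbered 3 differed more from their groups than the others did: across genes, log2 levels of oxLDL samples 1 and 2 correlated at r = 0.987 and those of untreated samples 1 and 2 at 0.988, while oxLDL sample 3 correlated with its group at 0.917 and 0.930 and untreated sample 3 at 0.902 and 0.909. All 10 macrophage markers on the list used were detected, among them Csf1r, the receptor for the macrophage growth factor, and Lyz2, a lysozyme. Cd163 was near the floor in the libraries numbered 3, at 0.0728 CPM with oxLDL and 0.0676 CPM without it. Their summed level was 8986 to 15970 CPM (the deposited scale, reads relative to the TMM-scaled size of the library) in the oxLDL samples and 12758 to 36023 CPM in the untreated samples. By the threshold given below 2 of the 10 fell, Fcgr1 and Aif1, against 3.98% of all tested genes. Adgre1 and Itgam had log2 fold changes of -2.36 and -2.14 without passing, and 2 of the 10 markers had positive values. Summed markers of neutrophils reached 4.05 to 6.98 CPM in the oxLDL samples and 8.85 to 33.9 CPM in the untreated samples, and those of B cells 1.75 to 9.53 CPM in the oxLDL samples and 3.45 to 38.3 CPM in the untreated samples. The B cell sum was nearly all Cd79b, with Pax5 at 0 in every library. Summed markers of T cells, erythroid cells, fibroblasts, dendritic cells and mast cells or basophils stayed at or under 3.57 CPM in the oxLDL samples and 4.61 CPM in the untreated samples. The part of these differences in the results below was not tested, and in bulk samples fewer cells of a type and less RNA per cell cannot be told apart.

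With oxLDL, none of the 8 genes passed the threshold, an adjusted p under 0.05 over all genes tested in edgeR's quasi-likelihood test with the number as a block, which compares each oxLDL sample with the untreated sample of its own number. In that fit 5.89% of all tested genes passed, 1.91% higher and 3.98% lower. At an unadjusted p under 0.05 there were 3 of the 8, Maff and Mafg with higher values and Bach1 with lower values, against 29.0% of all genes. DESeq2 with the same block called 2 of the 8, Bach1 and Maff, and 16.3% of all genes. With the libraries numbered 3 left out, edgeR called 5 of the 8, Maff, Mafg and Mafk higher and Bach1 and Keap1 lower, and 29.9% of all genes. Without the block edgeR called 0 of the 8 and 0 of all genes (0 and 1674 at an unadjusted p under 0.05), and with the block but without number 1 or without number 2 it also called 0 of the 8 and 0 of all genes (1613 and 1617 of all genes at an unadjusted p under 0.05). The ratio of oxLDL to untreated had the same sign in all 3 numbers for 6 of the 8 genes, against 53.2% of all genes, and the oxLDL and untreated samples overlapped in all 8, while they did not overlap in 21.0% of all genes.

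**Figure D1:**
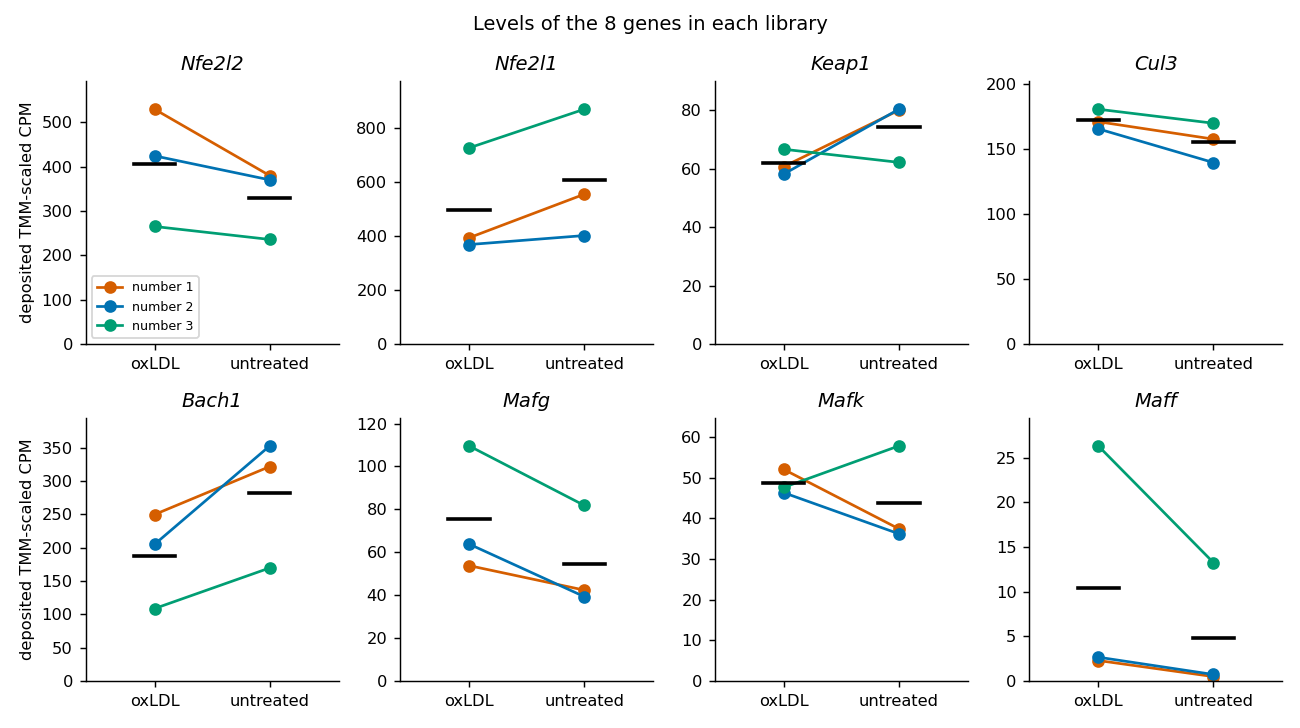
Level of each of the 8 genes in CPM as deposited (vertical axis, from 0), in oxLDL samples (left) and untreated samples (right); lines join samples of the same number and black bars are group means. The libraries numbered 3 lie apart from the others in both groups for Nfe2l2, Nfe2l1, Bach1, Mafg and Maff. The lines run the same way in all 3 numbers for every gene but Keap1 and Mafk.

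The transcript of NRF2 itself did not pass. Nfe2l2 measured 530, 424 and 265 CPM in oxLDL samples 1, 2 and 3, against 380, 370 and 236 CPM in the untreated samples. It was higher with oxLDL within every number, but untreated samples 1 and 2 lay above oxLDL sample 3. The log2 fold change was 0.28 ± 0.15 (SE; edgeR adjusted p = 0.281), and its 95% interval ran from a fold of 0.929 to 1.59. The largest of the 3 ratios was that of number 1, at 0.48 on the log2 scale, and the others were 0.20 and 0.17.

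NRF1 is anchored in the endoplasmic reticulum and, once processed, activates genes of the proteasome. Nfe2l1 measured 395, 369 and 728 CPM in the oxLDL samples and 556, 403 and 871 CPM in the untreated samples. The oxLDL value was the lower within every number, although both libraries numbered 3 exceeded all the others. Its log2 fold change was -0.29 ± 0.16 (SE; edgeR adjusted p = 0.289), with a 95% interval of the fold from 0.614 to 1.09.

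The sensor and its cullin did not pass either. Keap1 measured 60.8, 58.2 and 66.7 CPM in oxLDL samples 1, 2 and 3, and 80.1, 80.4 and 62.2 CPM in the untreated samples. The oxLDL value was lower in numbers 1 and 2 and slightly higher in number 3. The log2 fold change was -0.26 ± 0.15 (SE; edgeR adjusted p = 0.309), the ratios were -0.40, -0.47 and 0.10 on the log2 scale in numbers 1, 2 and 3, and without number 3 the value was -0.42 ± 0.11 (adjusted p = 0.0380, edgeR). Cul3, the scaffold that links KEAP1 to the ubiquitin-conjugating enzyme, measured 171, 166 and 181 CPM in the oxLDL samples and 158, 140 and 170 CPM in the untreated samples. It had the smallest log2 fold change of the 8 genes, 0.15 ± 0.11 (SE; edgeR adjusted p = 0.433), and a 95% interval of the fold from 0.902 to 1.36.

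BACH1 had lower transcript values with oxLDL in every number. Bach1 measured 250, 205 and 109 CPM in oxLDL samples 1, 2 and 3, and 322, 353 and 170 CPM in the untreated samples. Untreated sample 3 lay below oxLDL samples 1 and 2, so the groups overlapped, while the ratio within a number was -0.37, -0.78 and -0.64 on the log2 scale. The log2 fold change was -0.60 ± 0.15 (SE; edgeR unadjusted p = 0.0100, adjusted p = 0.0790), a fold of 0.661 with a 95% interval from 0.509 to 0.859. It passed in DESeq2 with the block (adjusted p = 0.0108) and in edgeR without number 3 (adjusted p = 0.0432), and without the block its edgeR adjusted p was 0.562.

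Small MAF proteins bind DNA but carry no activation domain of their own, so the partner decides whether the pair activates or represses. Mafg measured 53.7, 63.8 and 110 CPM in the oxLDL samples and 42.3, 39.3 and 81.8 CPM in the untreated samples. It was higher with oxLDL within every number, and untreated sample 3 lay above oxLDL samples 1 and 2. The log2 fold change was 0.49 ± 0.12 (SE; edgeR unadjusted p = 0.0105, adjusted p = 0.0802), a fold of 1.40 with a 95% interval from 1.13 to 1.74, and without number 3 it was 0.53 ± 0.13 (adjusted p = 0.0354, edgeR). In the GENCODE M21 annotation an exon of Mafg overlaps an exon of Sirt7 on the same strand. Sirt7, which encodes a sirtuin, measured 38.3, 47.5 and 28.9 CPM in the oxLDL samples and 54.1, 52.7 and 40.9 CPM in the untreated samples, lower with oxLDL within every number. How the counting treated this overlap is not given in the sources used here.

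Maff had the fewest reads of the 8 genes and the largest fold change. It had 34, 40 and 361 expected counts in oxLDL samples 1, 2 and 3, and 7, 10 and 196 in the untreated samples, which gave 2.28, 2.66 and 26.3 CPM with oxLDL and 0.482, 0.719 and 13.2 CPM without it. Both libraries numbered 3 were far above the rest, and the oxLDL value was the higher within every number. The count filter asked for 3 libraries at its minimum, and Maff reached it in 3 oxLDL libraries and 1 untreated library, so its place among the genes tested rested on the oxLDL samples. The log2 fold change was 1.50 ± 0.31 (SE; edgeR unadjusted p = 0.00520, adjusted p = 0.0621), a fold of 2.83 with a 95% interval from 1.62 to 4.95. It passed in DESeq2 with the block (adjusted p = 0.00387), with no count filter (edgeR adjusted p = 0.0482) and without number 3 (2.04 ± 0.38, edgeR adjusted p = 0.0157), and without the block its adjusted p in edgeR was 0.781.

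Mafk was the small MAF whose ratios disagreed between numbers. It measured 52.1, 46.3 and 47.6 CPM in the oxLDL samples and 37.5, 36.2 and 57.8 CPM in the untreated samples. The oxLDL value was higher in numbers 1 and 2 and lower in number 3. The log2 fold change was 0.18 ± 0.19 (SE; edgeR adjusted p = 0.558), the 95% interval of the fold ran from 0.808 to 1.59, and without number 3 it was 0.43 ± 0.11 (adjusted p = 0.0438, edgeR). In GENCODE M21 exons of Mafk overlap exons of Tmem184a on the opposite strand, which measured at most 0.0676 CPM, and exons of Keap1 overlap the opposite-strand gene Gm16754, which has no row in the tables. The expected counts of all 8 genes were whole numbers in every library.

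**Figure D2:**
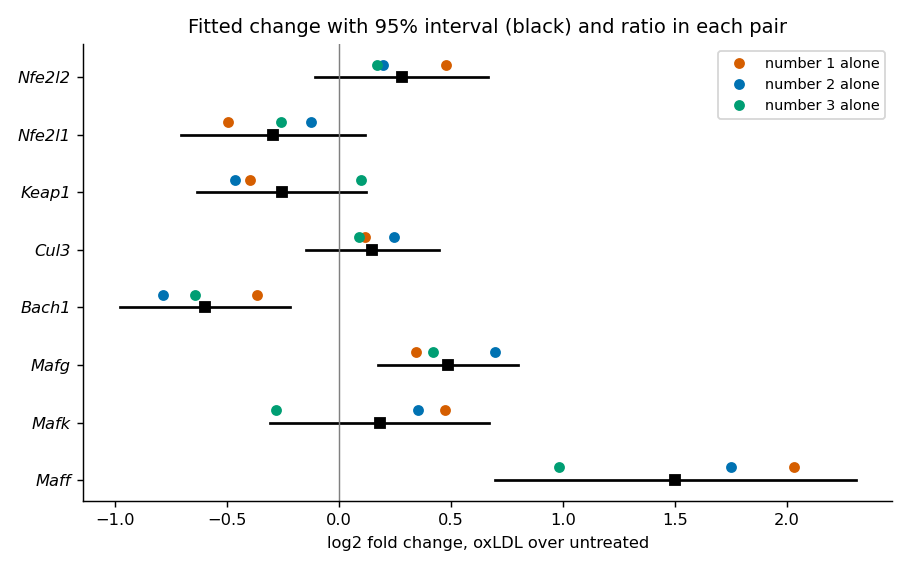
Fold change of each of the 8 genes, oxLDL over untreated, on the log2 scale: black squares and lines are edgeR's blocked estimate with its 95% interval, and coloured points are the ratio within each number. The intervals of Bach1, Mafg and Maff lie on a single side of 0, while their adjusted p-values over all genes were 0.0790, 0.0802 and 0.0621.

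NRF2, BACH1 and the small MAF proteins bind related DNA letters, and the genes of several of them carry such letters near their own start. RefSeq promoter windows (GRCm38.p6, 250 bases before to 50 after each annotated start) were searched on both strands for TGACNNNGC, the core of the ARE. All 8 genes had at least 1 window, 14 in all, and the letters occurred in windows of 4 genes, Nfe2l2, Mafg, Mafk and Maff. Of all 32851 windows 12.4% held the core, as did 28.6% of the 14 windows. The matches are shown with up to 25 bases on either side within the upstream stretch, since they stand at the genes whose products form the ARE-binding pair. Sequences are on the gene's strand, 5′ to 3′, and capitals mark the match, which for Mafk and Mafg is the core read on the opposite strand.
Nfe2l2: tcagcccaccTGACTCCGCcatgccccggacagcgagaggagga
Mafg: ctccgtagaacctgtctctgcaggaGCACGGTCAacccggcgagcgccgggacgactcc
Mafk: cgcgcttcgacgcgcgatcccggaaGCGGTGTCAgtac
Maff: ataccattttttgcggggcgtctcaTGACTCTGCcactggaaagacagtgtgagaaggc

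The printed stretches are chr2:75704870-75704913 (minus strand) for Nfe2l2, chr11:120633736-120633794 (minus strand) for Mafg, chr5:139791498-139791535 (plus strand) for Mafk and chr15:79346484-79346542 (plus strand) for Maff. The first base of the match lay at position -240 for Nfe2l2, -222 for Mafg, -13 for Mafk and -112 for Maff, counted from the annotated start. The AP-1 letters TGANTCA occurred in 0 of the 14 windows and in 7.81% of all windows. The letters TGCTGA, the flank that MAF proteins read, occurred in windows of 3 of the 8 genes, Mafk, Nfe2l1 and Bach1 (35.7% of the 14 windows and 19.5% of all), and shared no base with a match of the core. By gene, the shares were 37.5% of the 8 and 21.7% of all. These matches describe letters only, and binding was not measured. The 4 genes with the core had log2 fold changes of 0.28 (Nfe2l2), 0.49 (Mafg), 0.18 (Mafk) and 1.50 (Maff), and the 4 without it had -0.29 (Nfe2l1), -0.26 (Keap1), 0.15 (Cul3) and -0.60 (Bach1), none past the threshold. Mafk, with the core, was lower with oxLDL in number 3, and Cul3, without it, was higher in every number. Whether the core goes with a change was not tested.

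Ratios between genes within a library do not depend on how libraries are scaled. Of 5 such ratios, chosen with the values of the genes known and given without a test, that of Nfe2l2 to Bach1 was the most alike between numbers. Its log2 value was 1.08, 1.05 and 1.29 in oxLDL samples 1, 2 and 3, and 0.24, 0.07 and 0.48 in the untreated samples. The groups did not overlap, and the change with oxLDL was 0.84, 0.98 and 0.81 in numbers 1, 2 and 3, a mean of 0.88 ± 0.09 (SD, n = 3 numbers). Nfe2l2 was higher and Bach1 lower with oxLDL within every number, so a rise of their ratio in each number follows from those values. Both genes were also lowest in number 3 in each group, which brings their ratios in the numbers closer together. The ratio therefore adds no evidence to the results of the genes themselves, neither of which passed. The ratio of Nfe2l2 to Keap1 changed by 0.88, 0.66 and 0.07, Mafg to Bach1 by 0.71, 1.48 and 1.06, Nfe2l2 to Nfe2l1 by 0.97, 0.32 and 0.43, and Mafg to Mafk by -0.13, 0.34 and 0.70. In these 4 the oxLDL and untreated samples overlapped.

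For most of the 8 genes the number of a library went with a larger share of the spread than the treatment did. The medians over all tested genes differed the same way. Number has more levels than treatment, so it tends to take the larger share even where neither has an effect. The sum of squares of log2(CPM + 1) over the 6 libraries was split into treatment, number and remainder. Number took 88.2% for Maff, 87.8% for Nfe2l1, 84.2% for Nfe2l2, 75.8% for Mafg and 70.8% for Bach1, against a median of 50.6% over all tested genes, and treatment took between 9.62% and 26.9% for these 5. For Keap1 treatment took 46.9% and number 6.92%, and the remainder, at 46.2%, was about as large as treatment. For Cul3 and Mafk number took 50.5% and 38.5%, and treatment 41.1% and 14.3%. The largest share for Mafk was the remainder, 47.2%.

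**Figure D3:**
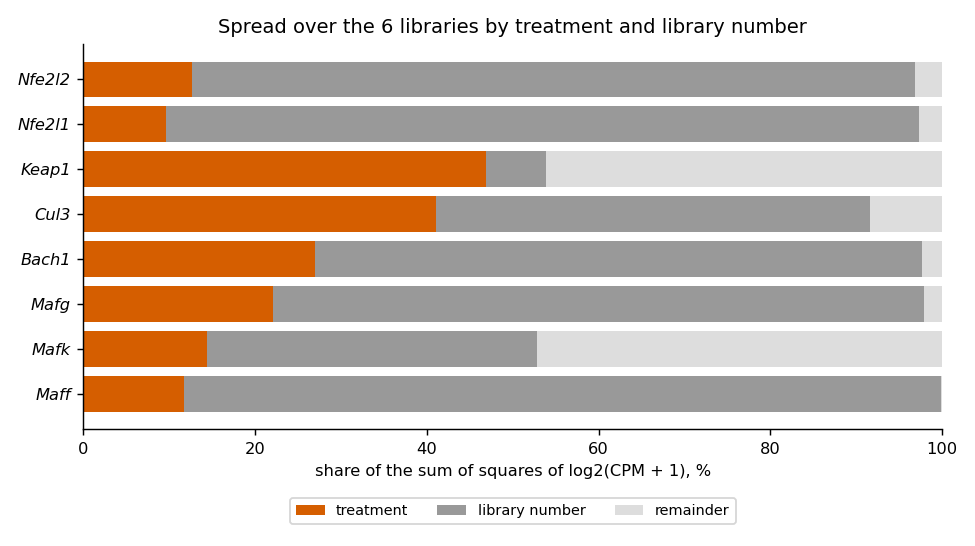
Share of the sum of squares of log2(CPM + 1) over the 6 libraries (horizontal axis, percent) that goes with treatment, with the library number and with the remainder, for each of the 8 genes. Number takes over 70% for Nfe2l2, Nfe2l1, Bach1, Mafg and Maff. For Keap1 treatment takes 46.9% and the remainder 46.2%.

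In 6 of the 8 genes the libraries numbered 3 lay outside numbers 1 and 2 on the same side in both groups, as did 59.9% of all genes. On the log2 scale Maff in number 3 exceeded the mean of numbers 1 and 2 by 2.98 with oxLDL and 3.16 without it, Mafg by 0.89 and 0.99, and Nfe2l1 by 0.93 and 0.88. Nfe2l2 had differences of -0.83 with oxLDL and -0.67 without it, and Bach1 of -1.05 and -0.99. Cul3, the remaining gene of the 6, had 0.10 and 0.19. Known NRF2 targets varied with the number as well: in untreated sample 3, 21 of 36 tested targets lay above both other untreated samples and 10 below both, while in oxLDL sample 3, 10 lay above and 22 below both other oxLDL samples. Over all genes these shares were 42.7% above and 44.4% below in untreated sample 3, and 43.3% above and 41.9% below in oxLDL sample 3. Hmox1 encodes the haem oxygenase that NRF2 activates and BACH1 represses. It measured 488, 588 and 2280 CPM in the oxLDL samples and 235, 199 and 1135 CPM in the untreated samples. Its level was highest within each group in number 3, in which both Nfe2l2 and Bach1 were lowest. Whether these levels are linked was not tested.

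Known targets of NRF2 rose with oxLDL in part. Of 37 genes known to be activated by NRF2, 36 were tested, of which 13 rose with oxLDL, 0 fell and 23 did not pass (edgeR with the block), against 1.91% of all genes that rose. The list was drawn up with earlier results of these data known. Its median log2 fold change was 1.18, against 0.01 over all genes, with medians of 1.32, 1.65 and 0.69 in numbers 1, 2 and 3. Without the libraries numbered 3 the count was 29, without number 1 or number 2 it was 0, and without the block it was 0. Those with the largest rises were the glutathione transferase Gsta3 (4.92 ± 0.80), the cystine transporter Slc7a11 (4.07 ± 0.56), the quinone reductase Nqo1 (3.54 ± 0.43), the peroxiredoxin Prdx6 (1.89 ± 0.18), catalase, Cat (1.84 ± 0.32), and the aldo-keto reductase Akr1b8 (1.67 ± 0.19), each as log2 fold change ± SE. Gsta3 measured 31.9, 41.4 and 17.8 CPM in the oxLDL samples and 0.207, 0.647 and 2.16 CPM in the untreated samples. Untreated samples 1 and 2 lay under the filter's minimum of 0.692 CPM. The place of Gsta3 among the genes tested thus rested on the oxLDL samples, and its fold change on values near the floor. Nqo1 measured 20.4, 39.0 and 18.4 CPM in the oxLDL samples and 0.964, 2.44 and 3.31 CPM in the untreated samples. Its groups did not overlap, nor did those of 20 of the 36 tested targets in all, against 21.0% of all genes. Gstm1 (3.03 ± 0.70) and the sulfiredoxin Srxn1 (2.48 ± 0.72) did not pass.

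Other factors share the bZIP or MAF domains of these genes. Of 7 listed, 4 were tested and 1 passed. Maf, the large MAF factor c-MAF of macrophages, measured 297, 126 and 31.1 CPM in the oxLDL samples, against 1108, 987 and 114 CPM in the untreated samples. It fell within every number, by 2.25 on the log2 scale (SE 0.28, edgeR adjusted p = 0.0316 with the block and 0.399 without it). The repressor Bach2 (1.02 ± 0.56) and the blood-cell factor Nfe2 (0.09 ± 0.35) did not pass, with at most 4.51 and 2.26 CPM in any library. Nfe2l3 and Mafa had at most 0.268 and 0.138 CPM and Nrl was at 0 in every library.

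The machinery that acts on these factors held no gene past the threshold. Over 7 lists of proteins that build or service the CUL3 ligase, bind KEAP1, destroy NRF2 by other routes, process NRF1, destroy BACH1, or serve NRF2 as cofactors or kinases, 0 of 61 tested genes passed in edgeR with the block, against 5.89% of all genes. At an unadjusted p under 0.05 there were 12, against 29.0% of all genes. DESeq2 with the block called 2 higher and 3 lower, against 16.3% of all genes, and edgeR without number 3 called 6 higher and 8 lower, against 29.9% of all genes. The median log2 fold change over the 61 was -0.02.

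Among proteins that bind KEAP1, Sqstm1, the autophagy receptor p62 that competes with NRF2 for KEAP1 and is itself an NRF2 target, measured 1717, 2079 and 5979 CPM in the oxLDL samples and 630, 671 and 3812 CPM in the untreated samples. It was higher within every number, and missed the threshold (log2 fold change 1.24 ± 0.28; edgeR adjusted p = 0.0714), and untreated sample 3 exceeded oxLDL samples 1 and 2. Sesn1, a sestrin, missed it at -1.65 ± 0.46, and of the 10 tested genes of this list 1 had a positive value. For BACH1 turnover, Fbxo22, a ubiquitin ligase subunit that recognises BACH1, measured 40.3, 54.0 and 47.0 CPM with oxLDL and 27.0, 25.3 and 38.8 CPM without it. Fbxo22 missed the threshold (log2 fold change 0.65 ± 0.19, edgeR adjusted p = 0.107), as did Fbxl17 (0.27 ± 0.13). The groups did not overlap in 3 of the 4 tested genes of this list, these included, and in 21.0% of all genes.

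In the list of other routes of NRF2 turnover, Ddb1, an adaptor of CUL4 ligases, had 0.57 ± 0.15 and Fbxw11, a beta-TrCP protein, -0.47 ± 0.14, and in that of NRF1 processing the ligase subunit Fbxw7 had 0.81 ± 0.29 and the sugar transferase Ogt 0.44 ± 0.14, none of which passed. The acetyltransferase Ep300 (-0.48 ± 0.17) and the retinoic acid receptor Rara (0.23 ± 0.23) did not pass among the cofactors, nor did the kinases Mapk14 (-0.76 ± 0.17) and Eif2ak3 (0.42 ± 0.22). The 15 genes of the cullin machinery lay within -0.18 and 0.28 on the log2 scale, with Nae1 (0.28 ± 0.12) and Cops7a (0.20 ± 0.10) at the upper end. Of 31 constitutive proteasome subunits, known targets of NRF1, 0 passed and 4 had an unadjusted p under 0.05, against 5.89% and 29.0% of all genes. Their median log2 fold change was 0.10, with a range from -0.32 to 0.79.

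**Figure D4:**
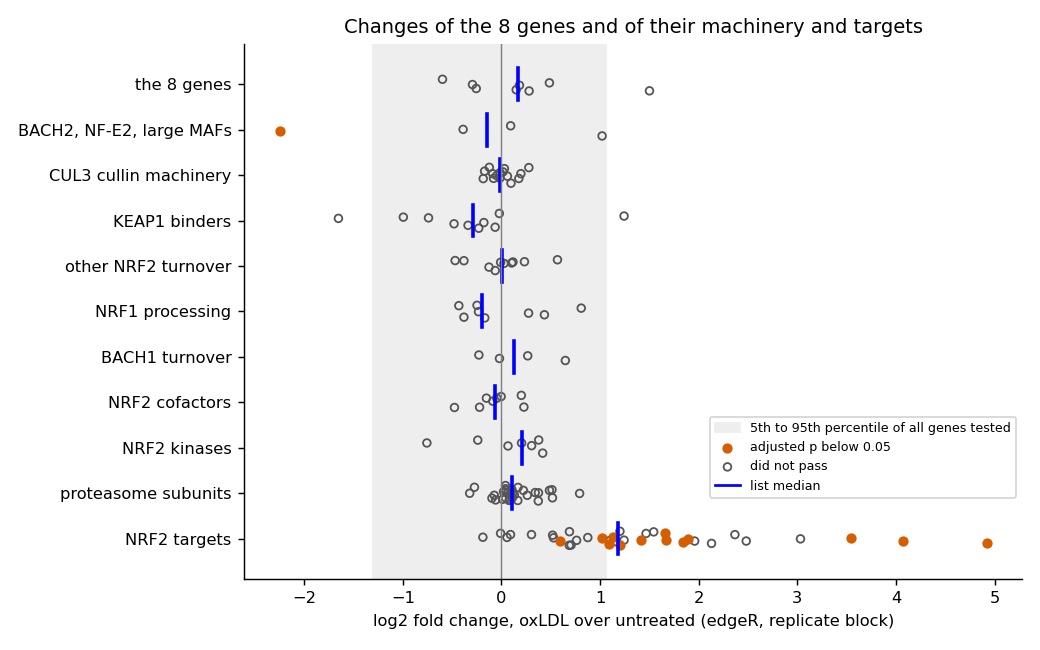
Log2 fold change, oxLDL over untreated (horizontal axis), of every tested gene in each list (rows); filled points passed at an adjusted p under 0.05, open points did not, blue bars are list medians and the grey band holds the central part of all tested genes. The 8 genes and their machinery are open points, 13 NRF2 targets are filled, and Maf is the filled point among the relatives.

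The genes whose levels over the 6 libraries were most like those of each of the 8 were found by Pearson's r of log2(CPM + 1) among tested genes with a mean of at least 3 on that scale. These correlations describe 6 points that share numbers and treatments, searched over 8853 genes (8854 for Maff). For Nfe2l2 they were Phax (r = 0.999), Fads1 (0.991) and Kif16b (0.988), for Nfe2l1 Atg4a (0.997), Foxk2 (0.995) and App (0.994), and for Bach1 Ifngr1 (0.999), Fli1 (0.997) and Dido1 (0.997). For Keap1 they were Thrap3 (0.994), Ppp1r7 (0.991) and Hmbox1 (0.991), and for Cul3 Rbm19 (0.989), Trappc10 (0.984) and Impad1 (0.982). For Mafg they were Ddx50, Zfp945 and Slc25a51 (r = 0.997 each), for Maff Ints12 (0.999), Naip2 (0.999) and Lrrc8c (0.997), and for Mafk H6pd (0.984), Nat6 (0.981) and Edem3 (0.980).

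**Figure D5:**
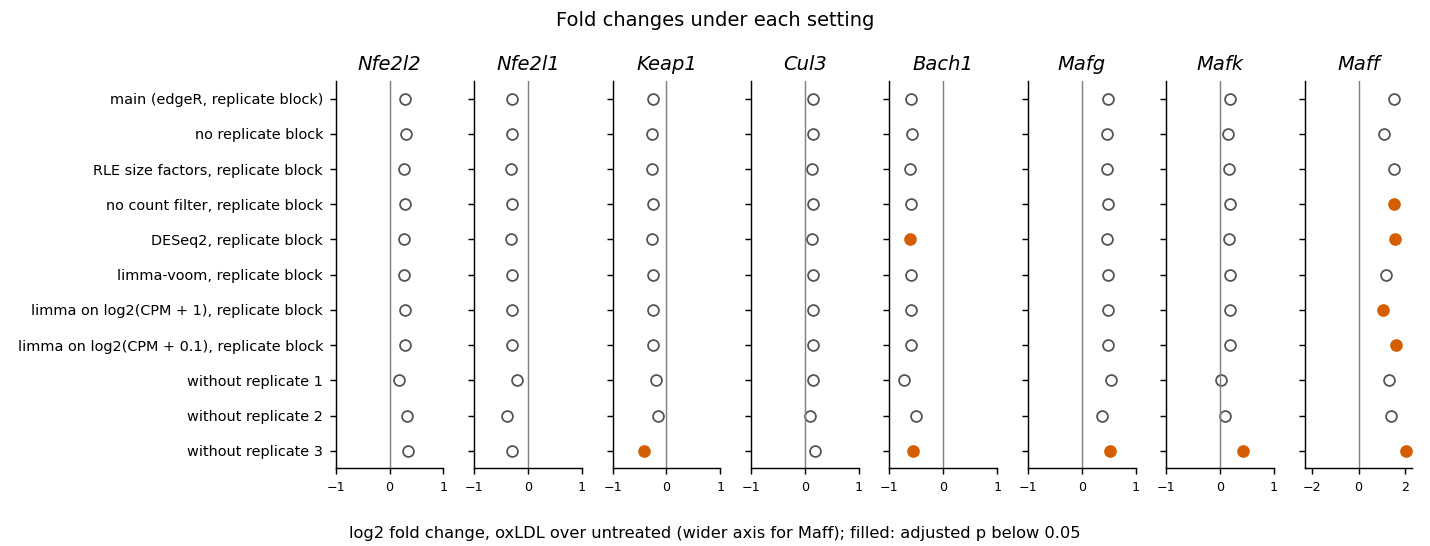
Log2 fold change of each of the 8 genes, oxLDL over untreated (horizontal axes, wider for Maff), under each processing setting (rows); filled points passed at an adjusted p under 0.05. Each gene keeps its sign in every row, and without number 3 the points of Keap1, Bach1, Mafg, Mafk and Maff are filled.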

How the data were processed

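Per the file names, the authors deposited RSEM expected counts and a normalised signal, CPM of TMM-scaled library sizes. The submitters' processing notes list Bowtie2 2.1.0, RSEM 1.2.15, edgeR and hg19, a human build, although the tables carry mouse symbols, and the annotation is not given in the sources used here. Levels are the deposited CPM: 100% of its values were whole reads (tolerance 0.005) and at least 99.9% equalled the rounded expected counts. Counts were rounded, filtered with filterByExpr (minimum count 10, minimum total 15) and tested with edgeR 4.0.16 (TMM, robust quasi-likelihood, R 4.3.3) with the number as a block, Benjamini-Hochberg adjusted over 11400 genes, with the SE taken as the fold change over the root of F. The block was used because the comparison set for these genes is matched by number. Deviations from the group means correlated between same numbers at r = 0.68, 0.47 and 0.71, each over the limit of 0.1, although oxLDL sample 1 also correlated with untreated sample 2 at 0.66. Ratios within a number add 0.1 CPM. DESeq2 1.42.0, limma 3.58.1 and other settings were tried, and scripts were tested on simulated data. No label says that replicates were separate cultures or animals. The p-values of the blocked fits cover only how the differences within a number varied among these libraries, which may be technical spread. The genes, lists and the choice of the blocked fit were made with earlier results of these data known. Beyond the 8, the text names up to 6 genes a list that passed and 2 that did not, by size of change, and the tested relatives, except a result that is not reported here. Older symbols were matched through RefSeq names, and promoter sequences are RefSeq's (GRCm38.p6). Depth ran from 13546572 to 15559310 expected counts per library.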

Additional observations from a re-analysis of the deposited data

How the results depend on the processing

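Across 10 other settings and an input of reads recovered from the deposited CPM, which was added after the data had been seen, the 88 fold changes of the 8 genes kept their sign, and 10 of them passed a threshold that the blocked edgeR fit did not reach. The count over all genes was 672 with the block, 0 with no replicate block, 1853 in DESeq2, and 0 to 3446 with a number left out. Of the 8 genes 0 passed with or without the replicate block, 1 with no count filter (Maff), 2 in DESeq2, 1 in limma on log2(CPM + 1) and 1 on log2(CPM + 0.1) (Maff in both), and 0 to 5 with a number left out. Of the NRF2 targets 13 passed with the block, 0 without it, 27 in DESeq2 and 0 to 29 with a number left out. The high counts were those without number 3, and counts were 0 without number 1 or 2. The cause was not tested. Fold changes of Maff ranged from 1.06 to 2.04 on the log2 scale, those of Mafk from 0.02 to 0.43, and scaling moved the median of all genes by at most 0.01. The depth limits Maff most, with 7 and 10 counts in untreated samples 1 and 2.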
